A study of Caenorhabditis elegans with 2 samples.

Results

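The binding of LSY-2, a zinc finger transcription factor, was examined by chromatin immunoprecipitation and sequencing (ChIP-seq) at 10 named genes of actin and the sarcomere, among 19973 protein-coding genes of the nuclear chromosomes. The genes were act-1, act-2, act-3, act-4, unc-54, unc-15, unc-89, pat-10, mup-2 and lev-11. They were chosen by name, with earlier results of these data known. The material was L2 larvae of Caenorhabditis elegans, taken whole and with the sexes pooled, of the strain OP367 with the genotype unc-119(tm4063) III; wgIs367, which stably expresses LSY-2 fused at its C terminus to GFP and FLAG. The series held 1 group with 2 biological replicates, so no condition was compared with another. The sources used here do not name the promoter that drives the transgene. The control library and the read depths were not analysed here. Because whole animals were used, a peak is a mixture over all cells that carried the tagged protein, and muscle cannot be told apart from other tissues in these lists.

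The sarcomere is the contractile unit of muscle, in which myosin thick filaments pull on actin thin filaments. In C. elegans body wall muscle the thick filaments have a core of paramyosin and are joined at the M-line, and the thin filaments carry tropomyosin and the troponins, which make contraction depend on calcium. LSY-2 is best known from a pair of taste neurons and not from muscle. Many worm transcripts receive a spliced leader, so an annotated 5′ end can lie downstream of the site where transcription starts.

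Each of the 10 genes had at least 1 LSY-2 summit of the authors' optimal peak list between 2000 bp upstream of its outermost transcript 5′ end and its gene end. By the same rule 27.9% of all protein-coding genes had one. Longer windows hold more summits. The 5 genes with windows under 5000 bp (act-1, act-2, act-3, pat-10 and mup-2) are therefore set beside a share of 22.3% for windows of that size, and the 5 with longer windows beside 39.8%. The windows held 13 optimal summits in all, none of them counted for 2 genes. The summits were 1.17 per 10 kb over the joined windows, 2.24 without the very long unc-89, and 0.629 over the genome. The genome value also covers sequence outside gene windows. The density over the windows of all protein-coding genes was not computed. Of the 13 summits, 9 lay upstream of the gene, 3 in introns, 1 in a 5′ UTR and none in a coding exon. The places of all optimal summits were not counted, so these places have no share beside them. No test was run on these counts, which describe genes that were named with earlier results of these data known.

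Most summits at these genes scored below the median of the optimal list. A peak score is the authors' own value per peak, and the sources used here do not state its scale, so it is read only as a rank within a list. The 13 scores ran from 61.6 to 227 with a median of 96.3, against a median of 123 over all 6312 optimal peaks, whose scores reached from 58.0 to 20472. Of the 13 peaks, 4 were in the stronger 50% of the list and 0 in the strongest 10%. Per gene, the median of the strongest score was 98.2, against 191 over the 5578 protein-coding genes with a summit in their window.

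**Figure D1:**
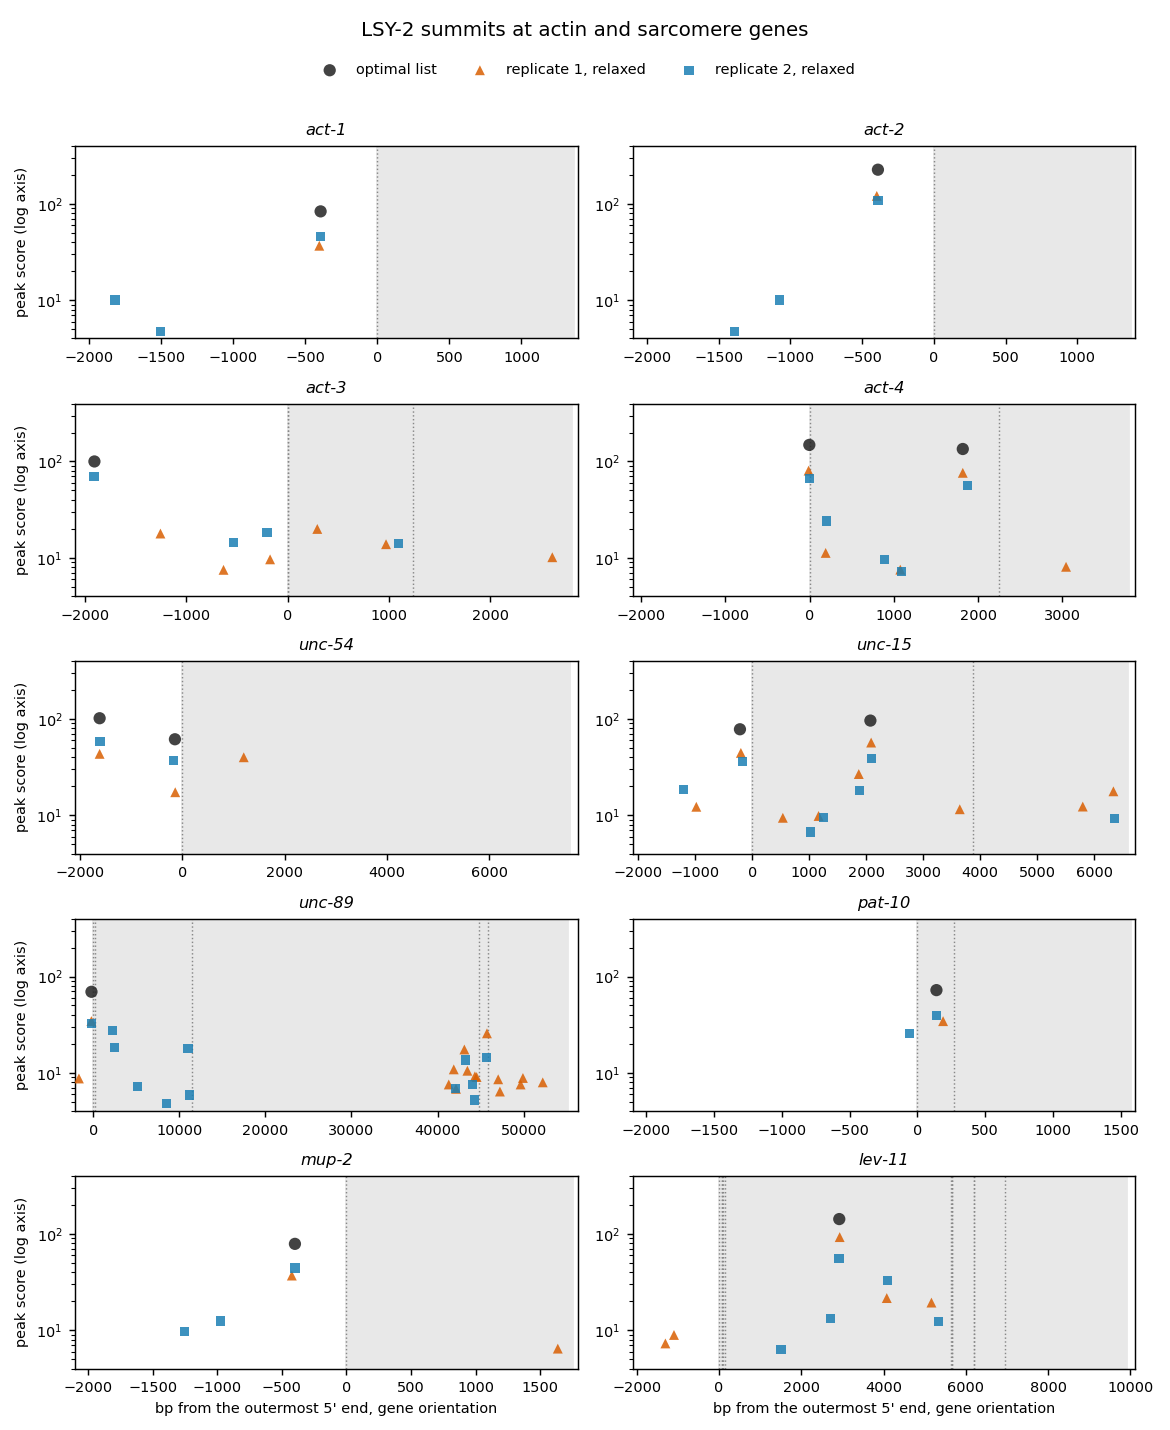
Positions and scores of LSY-2 summits in the windows of the 10 genes. The horizontal axis is the distance in bp from the outermost 5′ end in the direction of transcription, the vertical axis is the peak score on a log axis, grey marks the gene and dotted lines mark annotated 5′ ends; black points are optimal peaks, triangles and squares are the relaxed peaks of replicates 1 and 2. The black points run from 61.6 to 227, and most lie left of the gene.

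The actin genes act-1, act-2 and act-3 lie side by side on chromosome V (ce11). The proteins are close copies of each other: act-1 and act-3 had identical coding sequences of 1128 bp, act-2 differed from act-1 in 3 residues of 376, and act-4 differed from act-1 in 1. The coding exons of act-1 and act-3 held no 36-base word that occurs a single time in the genome, while in act-2 57.7% and in act-4 81.1% of such words did. The sources used here do not name the aligner, so how reads from repeated words were placed is unknown. The absence of an optimal summit in the coding exons of act-1 and act-3 is therefore not read as an absence of binding. In act-2 and act-4 this limit covers only part of the coding exons. Around 12 of the 13 optimal summits, including those of act-1, act-2 and act-3, every 36-base word within 200 bp was unique, and at the intronic act-4 summit 98.6% were.

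The divergent pair act-1 and act-2 shares a stretch of 2897 bp between their 5′ ends, and each gene had its own summit at nearly the same distance from its start. The act-2 summit, at V 11078544, lay 390 bp upstream of the act-2 5′ end and had the highest score of the 13, 227, at rank 1649 of the list. Its peak scored 121 in replicate 1 and 109 in replicate 2, at ranks 1745 and 1551, so the replicates placed it close together. The act-1 summit, at V 11080657, lay 395 bp upstream of act-1 with a score of 83.7 and rank 4502. In the replicates it scored 36.8 and 45.8, at ranks 5965 and 4039, and was thus weaker than the act-2 summit in both. The 2 summits were 2113 bp apart. The act-2 summit also fell inside the annotated non-coding RNA genes T04C12.18 and T04C12.24, which lie on opposite strands.

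The summit in the act-3 window was the least securely tied to its gene. It lay at V 11076407, 1909 bp upstream of the outermost act-3 5′ end and 370 bp past the 3′ end of act-2, and its score was 100.05 at rank 3827. Replicate 2 had a summit 4 bp away with a score of 69.7 at rank 2647. Replicate 1 had its nearest summit farther off, though within 200 bp, with a score of 48.4 at rank 4564, which fell outside the act-3 window. Ensembl places the outermost act-3 5′ end 1234 bp upstream of the one in RefSeq. From the RefSeq end the summit is 3143 bp away, and act-3 then has none.

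On chromosome X, act-4 had 2 optimal summits, and each stood before an annotated transcript start. The first, at X 4960618, was 3 bp upstream of the outermost 5′ end with a score of 149 and rank 2642. Its replicate scores were 80.3 and 66.4, at ranks 2751 and 2787, which were nearly equal. The second, at X 4962440, lay 1819 bp into the gene, in an intron, 435 bp upstream of the 5′ end of a shorter transcript. It scored 135 at rank 2899, and in the replicates 76.2 and 55.8, at ranks 2887 and 3320. The 2 act-4 peaks thus had ranks close to each other in the optimal list and in both replicates. The troponin T gene mup-2, which ties troponin to tropomyosin, had 1 optimal summit, at X 6410625, 398 bp upstream of its 5′ end. The score was 79.0 at rank 4758, and the replicate scores were 37.0 and 44.3, at ranks 5941 and 4186. The summit fell inside the annotated non-coding RNA gene T22E5.10.

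The reference sequence at the summits of these 5 genes is shown because these bases lie under the peaks themselves. Each line gives the RefSeq assembly WBcel235 (ce11) in the direction of the gene, 50 bases to either side of the summit; for the first act-4 summit the 48 bases in the 5′ UTR are left out. Capitals mark the word GAGAGA, the word ACGCAG, the word ACCGTA or the word TATAAA, on either strand. The intronic act-4 sequence is shown beside the strongest one of that gene and was added after its values were seen. The intervals are chrV:11080607-11080707 (plus strand) for act-1, chrV:11078494-11078594 (minus) for act-2, chrV:11076357-11076457 (minus) for act-3, chrX:4960568-4960620 and chrX:4962390-4962490 (plus) for act-4 and chrX:6410575-6410675 (minus) for mup-2.
act-1, 395 bp upstream: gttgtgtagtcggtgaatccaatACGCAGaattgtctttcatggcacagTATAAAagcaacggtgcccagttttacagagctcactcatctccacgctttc
act-2, 390 bp upstream: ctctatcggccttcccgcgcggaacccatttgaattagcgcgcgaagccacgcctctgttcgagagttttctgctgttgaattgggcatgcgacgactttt
act-3, 1909 bp upstream: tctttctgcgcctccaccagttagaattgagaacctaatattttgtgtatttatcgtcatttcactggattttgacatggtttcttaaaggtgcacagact
act-4, 3 bp upstream: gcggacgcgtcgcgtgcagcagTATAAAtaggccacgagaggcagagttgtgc
act-4, in the intron: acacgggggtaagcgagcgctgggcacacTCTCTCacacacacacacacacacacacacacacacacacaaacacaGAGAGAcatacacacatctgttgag
mup-2, 398 bp upstream: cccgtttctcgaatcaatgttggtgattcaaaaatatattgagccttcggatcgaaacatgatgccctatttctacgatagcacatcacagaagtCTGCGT

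The sequences differ from each other, and the 2 strongest summits held none of the first 3 words. GAGAGA stood, on opposite strands, at both ends of a CA repeat under the intronic act-4 summit, and ACGCAG stood in the act-1 and mup-2 windows, in mup-2 on the opposite strand. Over all 13 windows of this length, counted whole, GAGAGA was in 5, ACGCAG in 3 and ACCGTA in 0. Among the windows of all 6312 optimal summits the shares were 27.1%, 14.6% and 6.88%. At least 1 of these 3 words was in 7 of the 13 windows, against 40.6% of all windows. The other windows with GAGAGA were those of lev-11, pat-10, the unc-15 intron and the proximal unc-54 summit. TATAAA, the core of the TATA box, was searched for after the sequences had been seen, and it was in the windows of act-1 and the first act-4 summit, against 5.54% of all windows. The GC content of the 13 windows had a median of 49.5% and ran from 37.6% at act-3 to 64.4% at the proximal unc-54 summit, against a median of 43.6% over all optimal summits. A match of letters describes the window and does not by itself show a binding site.

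Of the other regulatory genes of the thin filament, lev-11 had an intronic summit and pat-10 one in a 5′ UTR. Tropomyosin, which winds along actin, is encoded by lev-11, whose 20 annotated transcripts start at 11 positions in an early and a late group. Its optimal summit, at I 14628171, lay in an intron 2923 bp into the gene and 2725 bp upstream of the nearest later start. The score was 143 at rank 2717, and the replicates gave 92.9 and 55.3 at ranks 2362 and 3350. The lev-11 promoter, taken as 1000 bp upstream to 200 bp downstream of the outermost 5′ end, held no optimal summit. Of pat-10, the troponin C of body wall muscle, which binds calcium, the summit lay at I 5020218, 140 bp inside the outermost 5′ end, in a 5′ UTR, and 132 bp upstream of the later 5′ end that RefSeq also uses. It scored 72.2 at rank 5174. The replicate scores were 34.4 and 39.0, at ranks 6379 and 4735, and the summit was 562 bp upstream of the divergent gene C46H11.6. In all, 8 of the 10 genes had an optimal summit in the promoter, against 19.2% of protein-coding genes, and the exceptions were act-3 and lev-11.

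The 2 thick filament genes had 2 optimal summits each, and in unc-54 the replicates differed in rank. The major myosin heavy chain of body wall muscle is encoded by unc-54. It had a distal summit at I 14865102, 1620 bp upstream, with a score of 102 at rank 3768. A proximal summit at I 14863629, 147 bp upstream, scored 61.6 at rank 5989. The distal peak scored 43.4 in replicate 1 and 58.6 in replicate 2, at ranks 5084 and 3165. The proximal peak scored 17.3 in replicate 1 and 37.0 in replicate 2, at ranks 12667 and 4972, so only replicate 2 had it among its 6312 strongest. Replicate 1 had instead a peak 1199 bp into the gene, with a score of 40.0 at rank 5504, which had no counterpart in the unc-54 window in replicate 2 or in the pooled list.

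Paramyosin, the core protein of the thick filament, is encoded by unc-15, and its 2 optimal summits had like ranks in both replicates. The upstream one, at I 7383414, was 217 bp before the 5′ end and scored 78.2 at rank 4798. The replicate scores were 44.4 and 36.2, at ranks 4969 and 5095. The internal one, at I 7381124, lay in an intron 2073 bp into the gene and 1796 bp upstream of a later 5′ end. It scored 96.3 at rank 3963, with 56.9 and 38.8 in the replicates at ranks 3889 and 4757. The internal peak was thus ranked above the upstream one in the optimal list and in each replicate.

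The giant M-line gene unc-89, an obscurin relative, spans 55184 bp on chromosome I and has 16 annotated transcripts with 5 start positions. It had a single optimal summit, at I 4035505, 197 bp upstream of the first start, with a score of 69.4 at rank 5351. The replicates gave 34.4 and 32.7, at ranks 6366 and 5641, so replicate 2 had it among its strongest 6312 and replicate 1 just missed it. The pooled list held 12 summits in the window, and the other 11 were below the optimal cutoff.

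All 13 optimal summits had a relaxed summit within 200 bp in both replicates, where this held for 98.6% of all optimal summits. The optimal list was derived from these replicates, so that support is partly built in. Taking only the 6312 strongest peaks of each replicate, 10 of the 13 were matched in both, against 79.3% of all optimal summits. All 13 were among the strongest of replicate 2 and 10 among those of replicate 1; over all optimal summits the shares were 86.7% and 88.9%. The 3 that missed in replicate 1 were those of unc-89, pat-10 and the proximal unc-54 peak, of which the first 2 ranked 6366 and 6379, just past the limit. The replicate 2 rank was the stronger at 8 of the 13, against 48.6% of all matched optimal summits. Counted from the strongest peaks of each replicate alone, 7 of the 10 genes had a summit in the window in replicate 1, against 28.4% of protein-coding genes, and 10 in replicate 2, against 28.0%. The genes without one in replicate 1 were act-3, unc-89 and pat-10.

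**Figure D2:**
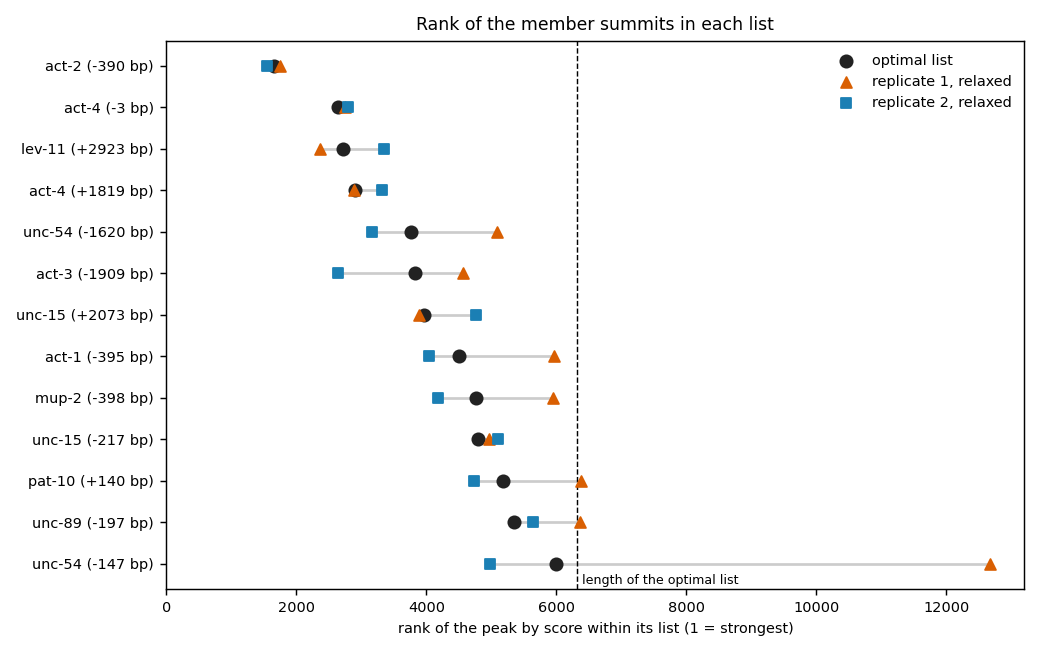
Rank of the 13 optimal summits of the 10 genes in the optimal list and of the matching relaxed peak in each replicate (horizontal axis, 1 is the strongest; the dashed line is the length of the optimal list, 6312). Names give the distance of the summit from the outermost 5′ end in bp. The proximal unc-54 peak stands apart with rank 12667 in replicate 1 and 4972 in replicate 2, and none of the other 12 ranks past 6379 in either replicate.

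The relaxed lists, which hold 30000 peaks each and include weak signal, added summits inside the longer genes. Within the windows they held 48 summits in replicate 1 and 44 in replicate 2, of which 28 and 24 lay in introns. In each replicate 1 lay in a coding exon, in act-4 and unc-89. The places of all relaxed summits were not counted. Leaving out those within 200 bp of an optimal summit, 12 pairs of summits from the replicates lay within 200 bp of each other, 4 in unc-89, 3 in act-3, 2 each in unc-15 and lev-11 and 1 in act-4. None was found in act-1, act-2, unc-54, pat-10 or mup-2, so 5 of the 10 genes had such a pair, against 26.4% of protein-coding genes. By window size, 1 of the 5 genes with windows under 5000 bp had one, against 18.9%, and 4 of the 5 with longer windows, against 42.2%. The share in the short windows was thus near that of all genes. The strongest pair was in lev-11, in an intron 4078 and 4098 bp into the gene, with scores of 21.6 and 32.8 at ranks 10191 and 5626. Its pooled score of 55.7 at rank 6568 was just under the lowest optimal score of 58.0. Both replicate summits of this pair fell inside the annotated non-coding RNA gene Y105E8B.14.

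In unc-89 the weak pairs gathered before its last start positions. The closest pair lay 72 bp upstream of the last 5′ end in replicate 1 and 136 bp upstream in replicate 2, with scores of 25.7 and 14.3 at ranks 8516 and 13088 and a pooled score of 40.3 at rank 8850. Another pair lay 1729 and 1603 bp before the start that precedes it, with scores of 17.4 and 13.5 at ranks 12597 and 13797. The replicate 2 summit of that pair fell inside the annotated small nucleolar RNA gene C24G7.6. Near the first start, replicate 2 had a summit 2233 bp into the gene with a score of 27.3 at rank 6782. The pooled list scored 52.9 at that place, and replicate 1 had no summit there. In act-3, pairs lay 634 and 539 bp before the outermost 5′ end, with scores of 7.48 and 14.4, 174 and 205 bp before it, with scores of 9.62 and 18.1, and 263 and 141 bp before the later 5′ end, with scores of 13.8 and 14.1. The medians of the relaxed lists were 14.6 in replicate 1 and 12.3 in replicate 2, so the 3 act-3 pairs were below the median in replicate 1 and above it in replicate 2. Their ranks ran from 10300 to 25972.

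**Figure D3:**
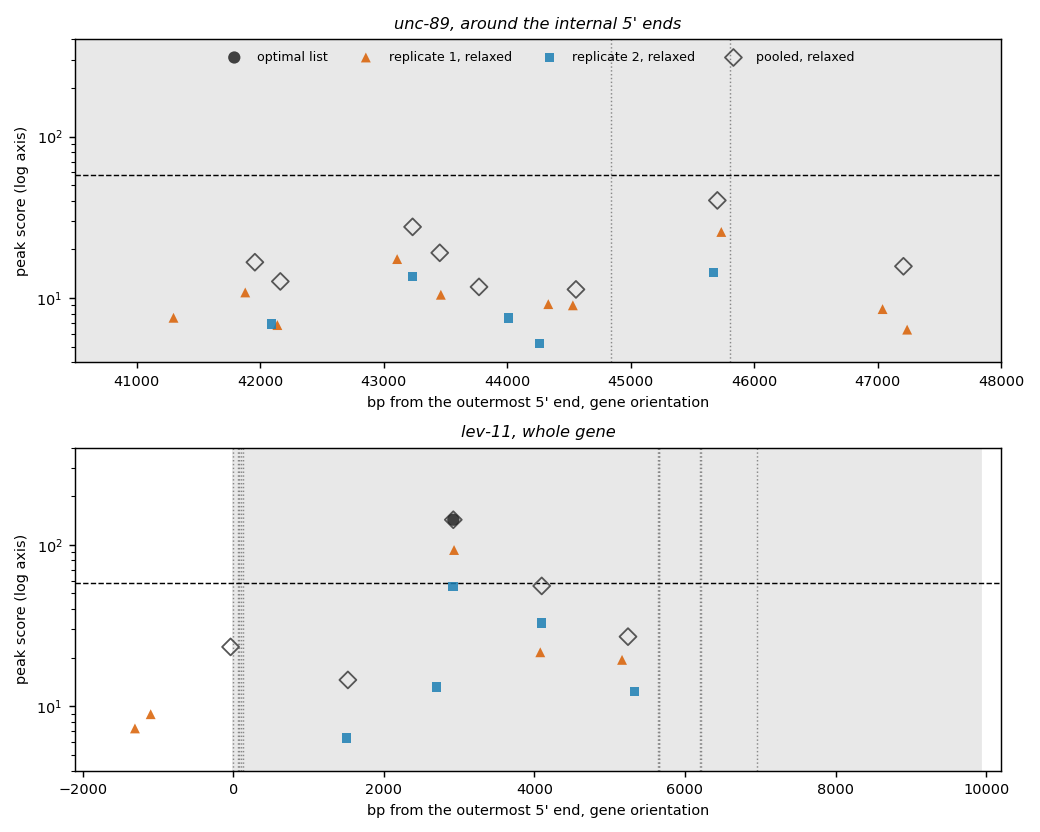
Summits around the internal 5′ ends of unc-89 (top) and over lev-11 (bottom), by distance in bp from the outermost 5′ end and peak score on a log axis. Triangles and squares are the relaxed peaks of replicates 1 and 2, open diamonds the pooled relaxed peaks, black points the optimal peaks, dotted lines the annotated 5′ ends and the dashed line the lowest optimal score of 58.0, which applies to pooled scores only. The pooled lev-11 peak with a score of 55.7 lies just under the line, and no pooled peak in this stretch of unc-89 reaches it.

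Other genes of the contractile machinery are given from 6 lists with 91 matched genes. Over all lists 46 had an optimal summit in the window, set beside 27.9% of protein-coding genes, and 25 had one in the promoter, beside 19.2%. Most of these windows are long. Of the 61 windows of 5000 bp or more 33 held a summit, beside 39.8%, and of the 30 shorter ones 13, beside 22.3%. No list was tested. Actin assembly genes, which cap, branch or bundle filaments or link them to membranes, had a window summit in 17 of 26 cases. Of their 15 windows of 5000 bp or more 10 held a summit, beside 39.8%, and of the 11 shorter ones 7, beside 22.3%. A promoter summit was found in 13 of the 26, beside 19.2% of protein-coding genes. The highest scores were 10737 at cap-2, a subunit of the actin capping protein, 1019 at the WAVE gene wve-1 and 397 at the spectrin gene spc-1. The cap-2 peak ranked 8 in the list, 7 in replicate 1 and 8 in replicate 2, far above any peak at the actin genes themselves. The wve-1 summit was nearer to the 5′ end of its neighbour R06C1.4, at 622 bp, than to that of wve-1, at 627 bp.

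Myosin and light chain genes had a window summit in 4 of 12 cases, nmy-2, unc-45, myo-3 and, named because the count is small, mlc-3, with scores of 204, 182, 78.9 and 76.9. Of these unc-45, the myosin chaperone, was the only one with a promoter summit, and the nmy-2 summit was nearer to T22C1.1. The pharyngeal myosin genes myo-1 and myo-2, named after the counts were seen, had none. By window size, 3 of the 8 longer windows in the myosin list held a summit, beside 39.8%, and 1 of the 4 shorter ones, beside 22.3%. Both were near the shares of all genes, and the promoter share of 8.33% was below 19.2%. The other thin filament genes had a window summit in 5 of 14 cases, led by the calponin-like gene cpn-3 with 547, the tropomodulin gene unc-94 with 181 and unc-87 with 161. A promoter summit was found in 3 of these 14 genes, beside 19.2% of protein-coding genes. Of the 5 longer windows in that list 3 held a summit, beside 39.8%. Of the 9 shorter ones 2 held a summit, near the 22.3% of all genes. These were cpn-3 and tnt-2, a troponin T gene named after its value was seen, with a score of 91.7 at 582 bp upstream and rank 4137. The giant protein and M-line list had a window summit in 5 of 9 cases and a promoter summit in 0, beside 19.2%. All 9 windows are of 5000 bp or more, where 39.8% of genes had a summit. Its highest scores were 140 at lim-9, 99.4 at dim-1 and 65.8 at ttn-1.

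Genes that anchor the sarcomere to the membrane had a window summit in 9 of 19 cases. Of their 16 windows of 5000 bp or more 7 held a summit, beside 39.8%, and of the 3 shorter ones 2, beside 22.3%. A promoter summit was found in 3, or 15.8%, beside 19.2% of protein-coding genes. The highest scores in this list were 250 at the kindlin gene unc-112, 136 at the parvin gene pat-6 and 132 at pat-4. The pat-4 gene encodes integrin-linked kinase, and its summit was nearer to C29F9.8. Muscle regulators, a list of transcription factors and of channel and receptor genes, had a window summit in 6 of 11 cases and a promoter summit in 5. Of their 8 longer windows 5 held a summit, beside 39.8%, and of the 3 shorter ones 1, beside 22.3%. The promoter share was 45.5%, beside 19.2%. The highest scores there were 546 at mef-2, 306 at hlh-1, the worm MyoD, and 198 at the acetylcholine receptor gene unc-63. The median of the strongest score per gene was 65.8 in the giant protein list and 199 in the actin assembly list, against 98.2 for the 10 genes.

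**Figure D4:**
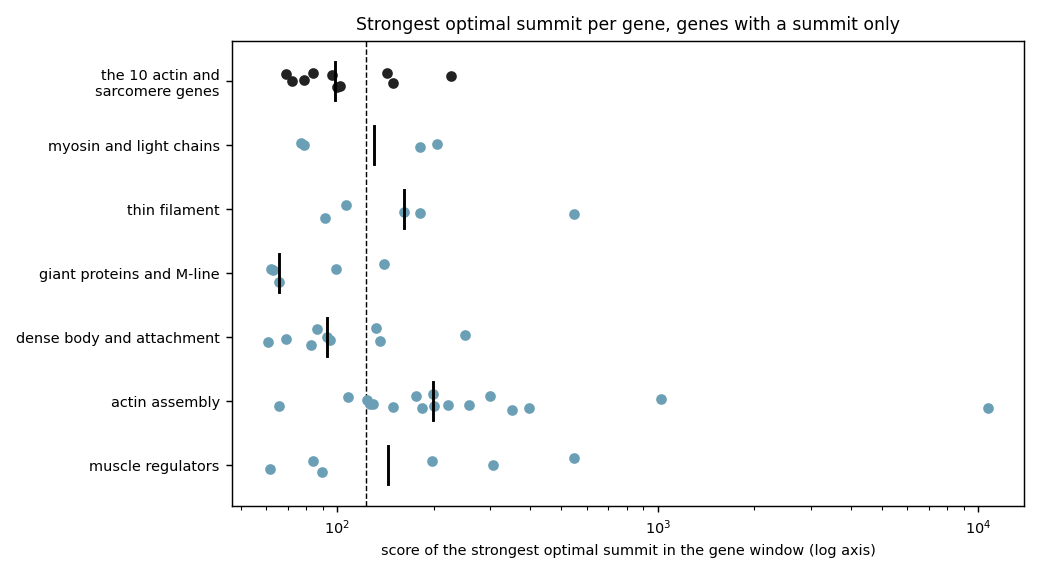
Score of the strongest optimal summit in the window of each gene that had one (points, log axis), for the 10 actin and sarcomere genes and for 6 lists of other muscle and actin genes. Black bars are medians and the dashed line is the median score of all optimal peaks, 123. The 10 genes lie between 69.4 and 227, and cap-2 stands far to the right with 10737.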

How the data were processed

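LSY-2 ChIP-seq peak lists on ce11 were used for 2 biological replicates of 1 group. Per the deposited file names and notes, there was a relaxed list for each replicate, a pooled one, and an optimal list thresholded by the irreproducible discovery rate. The sources used here name neither aligner nor peak caller. The deposited signal score per peak has no stated scale, and the −log10 of the q-value that the authors deposited was at its maximum of 4.26 for 100% of optimal peaks, so it ranked nothing. The optimal peaks were the 6312 highest pooled scores. Read depth is unknown, so values carry no counting interval.

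A summit was the peak start plus the offset in the file, written 1-based. Genes came from Ensembl release 115 on WBcel235, which is ce11, and all peaks ended within its chromosomes. Windows ran from 2000 bp upstream of the outermost 5′ end through the gene end, promoters from 1000 bp upstream to 200 bp downstream. Summits within 200 bp matched. Mitochondrial genes were left out. The symbol tmd-1 matched no gene. Counts used Python 3.11.15 with pandas 2.3.3, and counting was tested on simulated data. Named genes were all 10 members, the gene nearest to each summit, and up to 3 genes with the highest score in each list; others were named after their values were seen. The members, lists and first 3 sequence words were chosen with earlier results of these data known.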

Additional observations from a re-analysis of the deposited data

How the results depend on the processing

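Of 26 alternative values for the 5 main counts, 23 were within 1.5 times the value given and 3 were lower by more than that. With the strongest 50% of the optimal list, 3 genes (act-2, act-4 and lev-11) kept a summit in the window in place of 10, and the distinct summits were 4 in place of 13. With the strongest peaks of replicate 1 alone, 5 genes had a promoter summit in place of 8. No share of all protein-coding genes was computed for the strongest 50% or for promoter summits in 1 replicate. Leaving out each replicate in turn gave 7 to 10 genes with a window summit, 10 to 14 distinct summits and 5 to 8 genes with a promoter summit. RefSeq gene spans, an alternative chosen after seeing the data, gave 9 genes, because act-3 has a later start there. The cause of the other differences was not tested. No paired analysis was possible because the series holds 1 group. With no read counts, how far depth limits the weak summits could not be measured.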

Other observations

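The proximal unc-54 peak was not alone in ranking far apart in the replicates. Among the other muscle and actin genes, 3 were singled out after their values were seen because replicate 1 ranked their strongest peak far above replicate 2. The peak of mlc-3, a myosin light chain gene, ranked 4361 in replicate 1 and 14567 in replicate 2. At pat-3, the beta integrin gene, the ranks were 5147 and 15945. At unc-120, the worm gene for a serum response factor relative, replicate 1 had rank 5872 and replicate 2 had no summit within 200 bp. At unc-54 the order was the opposite, with rank 12667 in replicate 1 and 4972 in replicate 2. All 4 peaks were in the weaker 50% of the optimal list, with scores of 76.9 at mlc-3, 61.0 at pat-3, 61.7 at unc-120 and 61.6 at unc-54. No cutoff was set for ranks far apart, and how many of all optimal summits ranked so was not counted. Of all optimal summits, 98.6% had a relaxed summit within 200 bp in both replicates.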
